A study of Homo sapiens with 9 samples.

Results

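Matrix metalloproteinases, the ADAM and ADAMTS proteases and their TIMP inhibitors were followed in MCF10A cells and in a pair of transformed lines derived from them. The set was taken by gene symbol alone: every symbol of the deposited count table made of MMP and a number, TIMP1 to TIMP4, ADAM and a number, or ADAMTS and a number. This gave 69 of 60199 symbols, with 24 MMP, 4 TIMP, 22 ADAM and 19 ADAMTS genes. MCF10A is an immortalised, non-malignant human mammary epithelial cell line. The untreated cells (CT) carry the labels no supplement and not transformed. MC26 cells are unsorted MCF10A after long exposure to BMP2, a bone morphogenetic protein, and IL6, an inflammatory cytokine. M1B26 cells come from MCF10A sorted for the BMP receptor BMPR1B, and 3 soft-agar clones of these cells were expanded with the same factors. Both derived lines are labelled transformed and were kept in BMP2+IL6, at concentrations that the labels and the methods give differently. Each line was measured by poly-A RNA sequencing in 3 libraries. The labels do not say whether these were separate cultures, or which clone a M1B26 library holds, so the p-values measure the spread between libraries, which may be technical. Each derived line is 1 line against 1 parent, and the factors, the culture time, the sort and the choice of clones cannot be told apart.

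Libraries held 21425118 to 80076597 counts. All 10 mammary epithelial markers were detected, with KRT5 between 4633 and 7299 CPM (counts per 1000000 library counts, scaled by edgeR's TMM factors). EPCAM was at 65.6 to 74.4 CPM in CT, 11.7 to 19.1 in MC26 and 63.5 to 85.7 in M1B26. The 10 markers summed to 8251 to 10334 CPM in CT, 9884 to 12419 in MC26 and 9137 to 9623 in M1B26. At an edgeR adjusted p under 0.05, 4 of the 10 were higher and 4 lower in MC26 against CT. Of all tested genes, 18.8% were higher and 19.9% lower. Of the markers of other cells, the summed level of 9 fibroblast genes was 32.1 to 40.7 CPM in CT, 29.1 to 29.4 in MC26 and 40.6 to 45.0 in M1B26. THY1 was at 0 and COL1A2 and COL3A1 at no more than 1 count in any library. The list as a whole was not absent, since 5 of the 9 were expressed enough to be tested. The 8 leukocyte genes summed to 19.6 to 25.7 CPM in CT, 41.3 to 51.7 in MC26 and 62.6 to 84.3 in M1B26, carried by CD14, CD68 and CSF1R, with CD3E and TYROBP at 0. The 6 endothelial genes summed to 7.55 to 7.78 CPM in CT, 1.04 to 1.41 in MC26 and 2.84 to 4.95 in M1B26. EMCN was at 0 and CDH5 at no more than 1 count, while 2 of the 6 were expressed enough to be tested. In bulk RNA, fewer cells that express a gene and less RNA per cell cannot be told apart.

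MMPs are zinc proteases that cut collagens, laminins and other matrix proteins. Most are secreted as inactive proenzymes, while the membrane-type MMPs stay on the cell surface. TIMPs bind their active sites, and a complex of MMP14 with TIMP2 is known to bring the MMP2 proenzyme to the surface for activation. ADAMs are membrane proteins whose active members shed the outer part of growth factors, cytokines and receptors, and ADAMTS enzymes are secreted and cut proteoglycans, procollagens and clotting proteins. In the mammary gland these enzymes act in branching and in remodelling of the basement membrane.

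Most of the family was silent or low in these cells. Of the 69 genes, 16 had no count in any library: MMP8, MMP12, MMP20, MMP26, MMP27, ADAM2, ADAM5, ADAM6, ADAM7, ADAM18, ADAM30, ADAMTS2, ADAMTS8, ADAMTS10, ADAMTS18 and ADAMTS20. A count of 0 still allows up to 3 counts, or 0.0366 to 0.131 CPM depending on the library, and covers counting error alone. Another 18 had counts but did not reach the minimum for a test, with no more than 22 counts in a library. The remaining 35 were tested. A mean over 1 CPM in at least 1 line was reached by 27 genes, and one over 10 CPM by 12. The 6 genes ADAM15, TIMP1, ADAM9, MMP14, TIMP3 and TIMP2 held 86.2% of all counts on the family.

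**Figure D1:**
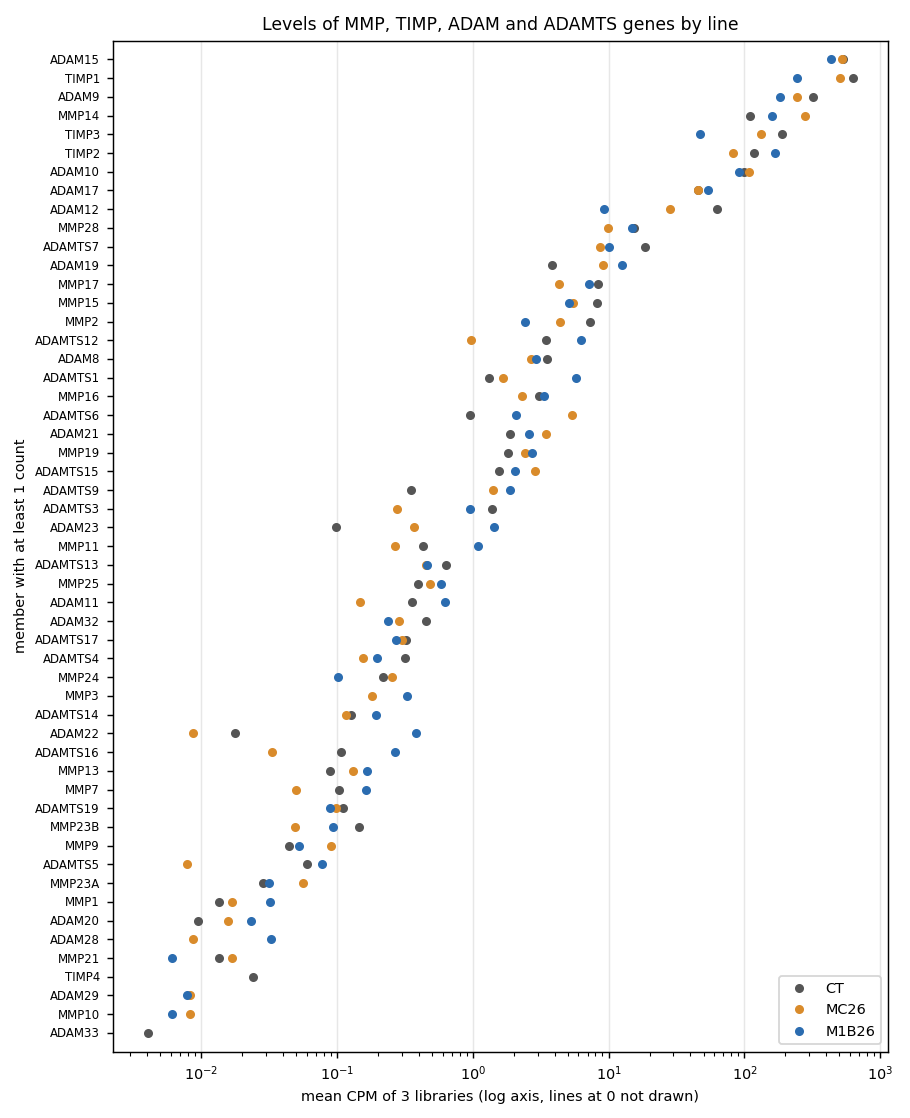
Mean level of each family gene with at least 1 count, as CPM on a log axis, with 1 point per line (grey CT, orange MC26, blue M1B26) and genes ordered by their mean over all libraries. The 6 leading genes hold 86.2% of the counts, and the lower part of the plot holds genes with few counts.

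The family as a whole took a smaller share of the RNA in the transformed lines. It held 0.222% to 0.237% of all counts in CT, 0.195% to 0.2% in MC26 and 0.138% to 0.148% in M1B26, with no overlap between the lines. TIMP1, ADAM15 and ADAM9 held most of it. Among the 35 tested genes, the highest mean was in CT for 16, in MC26 for 5 and in M1B26 for 14.

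Changes went both ways in each comparison. Significance was called at a Benjamini-Hochberg adjusted p under 0.05 over 15717 genes in edgeR's quasi-likelihood test, written below as edgeR adjusted p. In MC26 against CT, 21 of the 35 genes were called, 8 higher and 13 lower, where 38.7% of all tested genes were called, 18.8% higher and 19.9% lower. The comparison of M1B26 with CT called 23, 15 higher and 8 lower, against 48.9% of all genes, 25.2% higher and 23.7% lower. In M1B26 against MC26, 21 were called, 11 higher and 10 lower, against 39.5% of all genes, 21.2% higher and 18.4% lower. With a minimum mean of 50 counts, the calls in this last comparison were 6 higher and 11 lower. With total counts in place of TMM factors, 35.8% of all called genes were higher in MC26 against CT and 39.6% in M1B26 against CT, where TMM gave 48.5% and 51.5%, and for the called family genes these shares were 36.4% and 56.5%, where TMM gave 38.1% and 65.2%. Calls with at least a 2-fold change numbered 11, 12 and 12 in the same order, beside 10.8%, 11.7% and 8.17% of all genes. Libraries of the compared lines did not overlap in CPM for 24, 27 and 24 of the 35 genes, beside 50.3%, 59% and 53.5% of all genes. The median log2 fold change of the tested family genes was -0.40, 0.15 and 0.22, while that of all genes was 0.00 each time. Setting MMP3, which had no count in CT, to its lower bound left these medians at -0.40, 0.15 and 0.22. These counts are a description, since a gene can pass the expression minimum through the line in which it is high. Both comparisons against CT use the same 3 CT libraries.

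**Figure D2:**
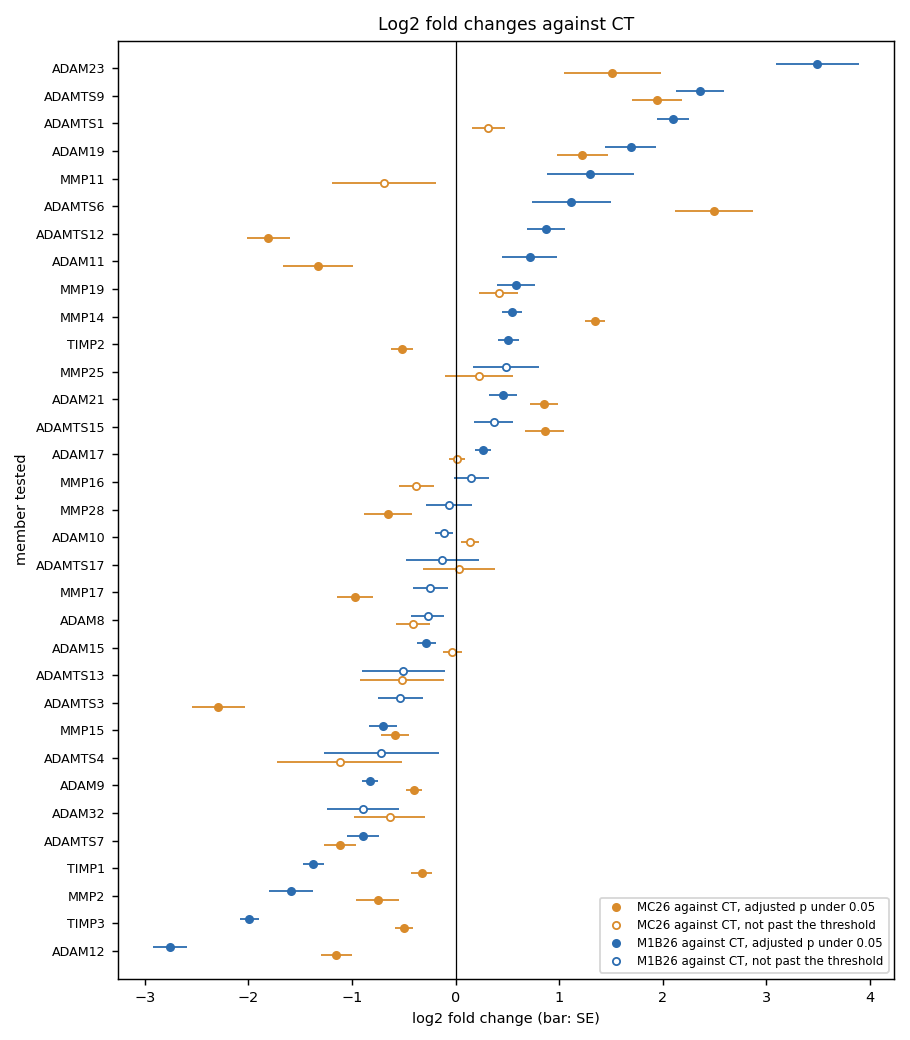
Log2 fold change against CT (x axis, bars are standard errors) of the tested family genes, orange for MC26 and blue for M1B26, with filled points for an edgeR adjusted p under 0.05 and open points for the rest. MMP3 and ADAM22 are not drawn because CT or MC26 held at most a few counts. ADAM12 stands lowest in M1B26 at -2.75, and TIMP2, ADAMTS12 and ADAM11 have filled points on both sides of 0.

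The inhibitors came down in MC26, and in M1B26 they split. TIMP1 and TIMP3 were lower again in M1B26 than in MC26, while TIMP2 was higher in M1B26 than in either of the other lines. Per kilobase of exon, TIMP1 led the inhibitors in every line, at a mean RPKM (CPM per kilobase of annotated exon) of 435 in CT, 346 in MC26 and 168 in M1B26. TIMP3 stood at 40.9, 29.0 and 10.3 RPKM and TIMP2 at 19.0, 13.2 and 27.0, so that TIMP2 was below TIMP3 in CT and MC26 and above it in M1B26. TIMP4 had 3 counts in all, each in a CT library.

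TIMP1, a secreted inhibitor of most soluble MMPs, lies at X:47582408-47586789 (GRCh38, plus strand). Its level was 618, 563 and 704 CPM in the CT libraries, 492, 506 and 503 in MC26 and 209, 257 and 262 in M1B26. Every M1B26 library was below every MC26 library, and every MC26 library below every CT library. The log2 fold change against CT was -1.37 ± 0.10 (SE) in M1B26, with an edgeR adjusted p of 2.25e-06. Against MC26 it was -1.05 ± 0.10, edgeR adjusted p = 3.08e-05. The smaller difference of MC26 from CT was -0.33 ± 0.10, edgeR adjusted p = 0.0228. This last call was lost without CT replicate 1 (adjusted p = 0.0582), CT replicate 3 (0.0986), MC26 replicate 1 (0.069) or MC26 replicate 2 (0.0616) in the same edgeR test.

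TIMP3, the inhibitor that binds to the matrix and also blocks ADAM17, lies at 22:32801705-32863041 (GRCh38, plus strand). Its level was 187, 187 and 190 CPM in CT, 126, 141 and 132 in MC26 and 47.0, 53.9 and 41.1 in M1B26. The lines did not overlap. Its log2 difference was -0.50 ± 0.09 in MC26 against CT (edgeR adjusted p = 0.00138), -1.99 ± 0.09 for M1B26 against CT (1.23e-07) and -1.49 ± 0.09 in M1B26 against MC26 (1.78e-06).

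TIMP2, the inhibitor that takes part in MMP2 activation, lies at 17:78852977-78925387 (GRCh38, minus strand). It was at 118, 113 and 122 CPM in CT, 69.0, 82.9 and 94.7 in MC26 and 154, 176 and 173 in M1B26. All MC26 libraries were below CT and all M1B26 libraries above it. TIMP2 changed by a log2 fold of -0.52 ± 0.10 in MC26 against CT (edgeR adjusted p = 0.00276), 0.51 ± 0.10 in M1B26 against CT (0.00207) and 1.03 ± 0.10 in M1B26 against MC26 (4.5e-05). The 843 tested genes of chromosome 17, TIMP2 among them, had a median log2 fold change of 0.48 in M1B26 against CT. This median was 0.48 in M1B26 against MC26 and 0.00 in MC26 against CT. The part of that shift in the TIMP2 result was not tested.

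**Figure D3:**
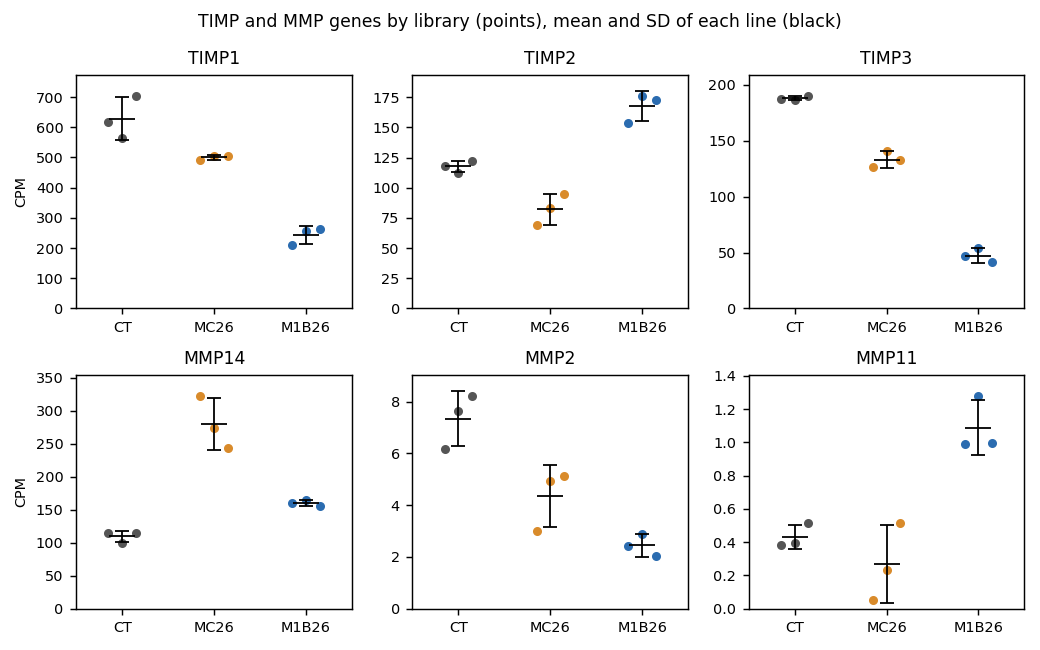
CPM (y axis from 0) of TIMP1, TIMP2, TIMP3, MMP14, MMP2 and MMP11 in each library, with the mean and SD of the 3 libraries of each line in black. TIMP1 and TIMP3 step down from CT to MC26 to M1B26, TIMP2 is highest in M1B26 and MMP14 is highest in MC26.

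Membrane-type MMPs were carried by MMP14, which rose in both transformed lines. MMP14, also called MT1-MMP, cuts fibrillar collagen at the cell surface and activates the MMP2 proenzyme. It lies at 14:22836560-22849041 (GRCh38, plus strand). Its level was 114, 100 and 115 CPM in CT, 322, 273 and 243 in MC26 and 160, 165 and 156 in M1B26. The 3 lines did not overlap, with MC26 highest and CT lowest. MMP14 differed on the log2 scale by 1.35 ± 0.10 in MC26 against CT (edgeR adjusted p = 3.36e-06), 0.55 ± 0.10 in M1B26 against CT (0.000914) and -0.80 ± 0.10 in M1B26 against MC26 (0.000137). Per kilobase, MMP14 stood at 23.7 RPKM in CT, 60.4 in MC26 and 34.7 in M1B26, which placed it below TIMP3 in CT and above it in both other lines.

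The other membrane-type genes were lower or did not pass the test against CT. MMP15 fell in both lines, with log2 fold changes of -0.59 ± 0.13 in MC26 (edgeR adjusted p = 0.00575) and -0.70 ± 0.13 in M1B26 (0.0014). It was at 7.69 to 8.56 CPM in CT, 4.38 to 6.35 in MC26 and 4.97 to 5.30 in M1B26. MMP17, a GPI-anchored member, fell in MC26, with 6.81 to 9.98 CPM in CT and 3.58 to 5.04 in MC26 (-0.97 ± 0.17, edgeR adjusted p = 0.00138). In M1B26 it was at 6.04 to 8.19 CPM, above MC26 by 0.73 ± 0.18 (edgeR adjusted p = 0.00756) and not past the threshold against CT (-0.25 ± 0.17, 0.252). MMP16 was higher in M1B26 than in MC26 by 0.53 ± 0.17 (edgeR adjusted p = 0.0292), a call lost without M1B26 replicate 1 (0.106) or MC26 replicate 1 (0.0986). MMP25 passed no test, and 30.6% of its exonic length is shared with an antisense gene. MMP24 was too low to test.

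The ratio of MMP14 counts to TIMP counts, taken within each library, differed from line to line and from TIMP to TIMP. For each TIMP2 count there were 0.966, 0.889 and 0.937 MMP14 counts in CT, 4.67, 3.29 and 2.57 in MC26 and 1.04, 0.936 and 0.902 in M1B26. The ratio in M1B26 lay in the range of CT, except in 1 library just above it, and every MC26 library was above both. Against TIMP1 the mean ratio was 0.175 ± 0.0112 (SD, n = 3) in CT, 0.559 ± 0.0872 in MC26 and 0.669 ± 0.0885 in M1B26. Against TIMP3 it was 0.583 ± 0.0407, 2.11 ± 0.387 and 3.42 ± 0.366. Against the sum of TIMP1, TIMP2 and TIMP3 the mean ratio was 0.117 ± 0.00558 in CT. MC26 stood at 0.392 ± 0.0695 and M1B26 at 0.353 ± 0.0339, and their ranges overlap. TIMP1 had the highest CPM of these TIMPs in each line and so weighs most in the sum. These ratios are of transcripts, not of protein or activity, and do not measure inhibition of MMP14. No length correction enters them.

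**Figure D4:**
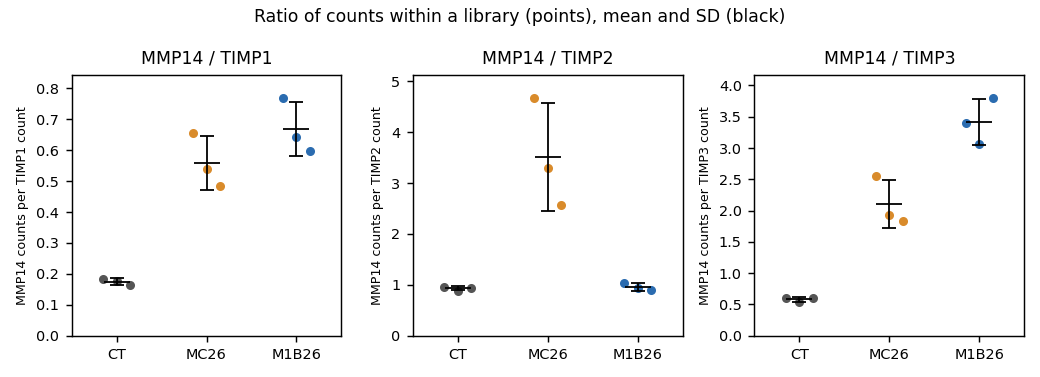
MMP14 counts per count of TIMP1, TIMP2 or TIMP3 within each library (y axis from 0), with the mean and SD of the 3 libraries of each line in black. The TIMP2 ratio is high in MC26 alone, at 2.57 to 4.67, while the TIMP1 and TIMP3 ratios are above CT in both transformed lines.

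The sequences just before the start of TIMP1, TIMP3 and MMP14 are shown as examples of abundant genes called in both transformed lines. TIMP2 and ADAM9 were also called in both and are not shown. The stretches are RefSeq promoter sequences of GRCh38, read 5′ to 3′ on the gene's strand and ended before the first annotated exon base. Capitals mark the GC box GGGCGG on either strand, a motif bound by SP-family factors. A match is a description of the letters and not evidence of binding.
TIMP1, X:47582316-47582407: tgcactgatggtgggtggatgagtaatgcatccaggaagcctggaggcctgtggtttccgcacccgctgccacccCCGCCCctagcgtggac
TIMP3, 22:32801585-32801704: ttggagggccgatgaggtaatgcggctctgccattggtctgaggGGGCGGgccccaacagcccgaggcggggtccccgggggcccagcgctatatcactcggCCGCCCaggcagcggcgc
MMP14, 14:22836465-22836559: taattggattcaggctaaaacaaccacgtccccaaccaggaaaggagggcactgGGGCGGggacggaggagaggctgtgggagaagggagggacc
TIMP3 held 2 matches in this stretch, and TIMP1 and MMP14 held 1 each. Of 27305 RefSeq promoter windows, each 300 bases long, 44.6% hold this motif. The stretches shown are shorter, at 92, 120 and 95 bases, so this share is not a background for them.

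Apart from MMP28, the secreted MMPs had means under 10 CPM in each line. MMP2, the gelatinase that cuts type IV collagen of basement membranes, fell stepwise. It was at 6.16, 7.64 and 8.21 CPM in CT, 2.98, 4.94 and 5.13 in MC26 and 2.41, 2.89 and 2.03 in M1B26. No library of one line overlapped another line. Against CT, M1B26 differed by -1.59 ± 0.21 on the log2 scale (edgeR adjusted p = 0.000146) and MC26 by -0.75 ± 0.21 (0.0149), and M1B26 was below MC26 by -0.84 ± 0.22 (0.0111). Without CT replicate 3 the MC26 call was lost, with an edgeR adjusted p of 0.0577. MMP9, the other gelatinase, had at most 7 counts in any library and was not tested.

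MMP11, or stromelysin-3, was higher in M1B26. It was at 0.386, 0.393 and 0.512 CPM in CT, 0.0497, 0.235 and 0.518 in MC26 and 0.992, 1.28 and 0.997 in M1B26. The M1B26 libraries were above all others, while 2 MC26 libraries were below every CT library and 1 was just above the highest of CT. Against CT, M1B26 was higher by 1.30 ± 0.42 on the log2 scale (edgeR adjusted p = 0.0241), a call lost without CT replicate 1 (0.0898), CT replicate 2 (0.0575) or M1B26 replicate 2 (0.0798). Against MC26 it was 1.99 ± 0.46 (edgeR adjusted p = 0.00626), and 2.93 without MC26 replicate 3. MC26 differed from CT by -0.69 ± 0.50 (edgeR adjusted p = 0.299), and by -1.62 (0.0226) without MC26 replicate 3.

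MMP3, or stromelysin-1, had no count in any CT library. It had 15, 3 and 4 counts in MC26 and 14, 10 and 23 in M1B26, under 1 CPM everywhere. Set against 3 counts per library in CT, its mean CPM was at least 2.59-fold higher in MC26 and at least 4.64-fold higher in M1B26 (edgeR adjusted p = 0.00568 and 0.001). MC26 replicate 1 held most of the MC26 counts. Without it the bound in MC26 against CT came to at least 1.23-fold and the edgeR adjusted p to 0.0119, and M1B26 passed the threshold against MC26 (0.0272), which it did not with all libraries (0.258).

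MMP28, or epilysin, an MMP of epithelia whose gene is also on chromosome 17, was at 12.4 to 17.4 CPM in CT, 8.06 to 11.8 in MC26 and 10.9 to 20.8 in M1B26. Its fall in MC26 (-0.65 ± 0.23, edgeR adjusted p = 0.0428) was lost without CT replicate 1 (0.139), CT replicate 3 (0.102), MC26 replicate 1 (0.142), MC26 replicate 2 (0.108) or M1B26 replicate 1 (0.054). M1B26 differed from MC26 by 0.59 ± 0.23 (edgeR adjusted p = 0.0617), and passed without M1B26 replicate 2 (0.0301), without MC26 replicate 3 (0.0366), in DESeq2 (0.0265) and without the expression minimum (0.00043). MMP19 was at 1.75 to 1.87 CPM in CT and 2.38 to 2.98 in M1B26 (0.58 ± 0.19, edgeR adjusted p = 0.023), a call lost without any 1 of the 3 CT libraries (0.0505 to 0.0594), M1B26 replicate 1 (0.061) or M1B26 replicate 2 (0.0757). In MC26 it was at 1.95 to 3.08 CPM, not past the threshold (edgeR adjusted p = 0.103) unless MC26 replicate 3 was left out (0.037). Of the exonic length of MMP19, 17.6% is shared with TMEM198B on the opposite strand, and the strand setting of the counting is not known.

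The collagenases and their neighbours on chromosome 11 were all but silent. The cluster of MMP7, MMP20, MMP27, MMP8, MMP10, MMP1, MMP3, MMP12 and MMP13 spans 11:102520508-102955732 (GRCh38, all on the minus strand). Its 9 genes had 179 counts together over 9 libraries, and 4 of them had none. The highest count of any of them in a library was 23, for MMP3. MMP1, the interstitial collagenase, had 10 counts in all, and MMP13 and MMP7 had 52 and 46. The nearest protein-coding genes on either side were well expressed, TMEM123 at 126 to 220 CPM and DCUN1D5 at 75.9 to 93.8 CPM.

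The motif TGANTCA, a loose pattern for AP-1 sites that allows any middle base, was searched for on both strands. It occurred in the promoter windows of MMP7, MMP10, MMP20 and ADAMTS12. RefSeq windows (GRCh38, 250 bases before to 50 after the start) were matched for 39 of the 69 genes, and 4 of these held the motif, which 7.76% of all 27305 windows hold. Because 30 genes were not matched, no share is read for the family or for the cluster. A gene not listed may have had no window to search. The stretches of 30 bases around each match are shown because 3 of the 4 genes lie in the silent cluster, where RNA was at or near 0. Capitals mark the motif, and each stretch reads 5′ to 3′ on the minus strand.
MMP7, 11:102530797-102530826: aaaacactcaaaTGAGTCAcctatttccac
MMP10, 11:102780678-102780707: aaaacacatgcaTGAATCAtactgttggtg
MMP20, 11:102625427-102625456: ctgtttgagacaTGAATCAtccttgctcgg
ADAMTS12, 5:33892057-33892086: gacactgtcagcTGAATCActcccctttta
Of these 4, MMP7 alone held TGAGTCA, the usual AP-1 form, and the other 3 held TGAATCA, which is not that form. A match describes the letters and is not evidence of binding. MMP20 had no count, MMP10 had 2 and MMP7 had 46 over all libraries, while ADAMTS12 reached 6.56 CPM.

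Among the ADAM sheddases, ADAM10 and ADAM17 differed by no more than 0.26 on the log2 scale in each comparison with all libraries. ADAM10, which sheds Notch, E-cadherin and other surface proteins, was at 94.9, 111 and 91.0 CPM in CT, 107, 113 and 107 in MC26 and 89.4, 86.6 and 98.5 in M1B26. The CT libraries overlap both other lines. Against CT, the log2 difference was 0.14 ± 0.08 in MC26 (edgeR adjusted p = 0.218) and -0.11 ± 0.08 in M1B26 (0.295). Without CT replicate 2, MC26 passed the threshold (0.23, edgeR adjusted p = 0.0228). M1B26 was below MC26 by -0.25 ± 0.08 (edgeR adjusted p = 0.0352), and this call was lost when MC26 replicate 1, 2 or 3 or M1B26 replicate 1 or 2 was left out (0.053 to 0.121).

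ADAM17, the enzyme that releases TNF and several EGF receptor ligands, was at 46.6, 46.1 and 43.1 CPM in CT, 42.7, 47.2 and 47.1 in MC26 and 52.9, 50.8 and 59.2 in M1B26. The M1B26 libraries were above the other 6, which overlap. In M1B26, ADAM17 was higher by a log2 difference of 0.26 ± 0.08 against CT (edgeR adjusted p = 0.0144) and 0.25 ± 0.08 against MC26 (0.0234), while MC26 differed from CT by 0.01 ± 0.08 (0.905). The call against CT was lost with total counts in place of TMM scaling (edgeR adjusted p = 0.113) and without CT replicate 3 (0.0542) or M1B26 replicate 3 (0.0592). The call against MC26 was lost without MC26 replicate 1 (0.0867) or M1B26 replicate 3 (0.0948). Of its exonic length, 10.3% is shared with IAH1 on the opposite strand, and the strand setting of the counting is not given in the sources used here.

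ADAM12, which sheds HB-EGF and other ligands, lies at 10:126012381-126388477 (GRCh38, minus strand). It was at 59.4, 66.3 and 64.1 CPM in CT, 24.0, 27.8 and 33.5 in MC26 and 8.45, 7.60 and 11.9 in M1B26. The 3 lines were far apart. ADAM12 fell with a log2 fold change of -1.15 ± 0.15 in MC26 against CT (edgeR adjusted p = 0.000202), -2.75 ± 0.16 in M1B26 against CT (6.06e-07) and -1.60 ± 0.16 in M1B26 against MC26 (4.09e-05). In M1B26 its mean of 9.32 CPM was the lowest of the lines, beside 63.2 in CT.

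ADAM9, a sheddase with a wide range of targets, fell in the same order of lines with smaller steps. It was at 296 to 358 CPM in CT, 235 to 255 in MC26 and 178 to 184 in M1B26. ADAM9 differed by -0.40 ± 0.08 in MC26 against CT on the log2 scale (edgeR adjusted p = 0.0021), -0.83 ± 0.08 in M1B26 against CT (1.1e-05) and -0.43 ± 0.08 in M1B26 against MC26 (0.00144). ADAM15, at 454 to 596 CPM in CT, 493 to 552 in MC26 and 430 to 443 in M1B26, was second to TIMP1 per kilobase in CT, at a mean of 80.4 RPKM. It was lower in M1B26 by -0.28 ± 0.09 against CT (edgeR adjusted p = 0.0243) and -0.25 ± 0.09 against MC26 (0.0473). The call against CT was lost without CT replicate 1 or 3 or any M1B26 library (0.0602 to 0.102), and that against MC26 without CT replicate 1 or any MC26 or M1B26 library (0.0635 to 0.125).

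ADAM19, a membrane sheddase of neuregulins, rose in both transformed lines. It was at 4.10, 3.54 and 3.88 CPM in CT, 11.6, 10.6 and 5.01 in MC26 and 12.0, 11.7 and 13.8 in M1B26. Each transformed library was above CT, and MC26 replicate 3 stood well below the other MC26 libraries. The rise was 1.22 ± 0.25 on the log2 scale in MC26 (edgeR adjusted p = 0.00291) and 1.69 ± 0.25 in M1B26 (0.000242), and the lines differed by 0.47 ± 0.24 (0.137). Without the expression minimum this last difference passed the edgeR test (0.0129). ADAM21 was highest in MC26, at 1.70 to 2.03 CPM in CT, 3.22 to 3.58 in MC26 and 2.46 to 2.75 in M1B26. Its rise was 0.86 ± 0.14 in MC26 (edgeR adjusted p = 0.000669) and 0.46 ± 0.14 in M1B26 (0.0173), and the second call was lost without CT replicate 1 (0.0545), M1B26 replicate 1 (0.0522) or the expression minimum (0.0663). M1B26 was below MC26 by -0.40 ± 0.13 (edgeR adjusted p = 0.0348), which was lost without CT replicate 1 or any 1 MC26 or M1B26 library (0.0517 to 0.102) and without the expression minimum (0.145). ADAM8 passed no test, at 2.25 to 3.77 CPM over the 9 libraries, but was past the threshold in MC26 against CT without MC26 replicate 3 (-0.55, edgeR adjusted p = 0.0253) and with total counts in place of TMM factors (0.037).

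ADAMs without an active protease site had a higher summed level in the M1B26 libraries. The 8 such genes together stood at 0.743 to 1.09 CPM in CT, 0.721 to 0.894 in MC26 and 2.55 to 2.99 in M1B26. Of the 4 that could be tested, ADAM11, ADAM22 and ADAM23 were called higher in M1B26 against CT, beside 25.2% of all genes, and the ADAM11 call was lost under several alternatives given with it. ADAM32, at 0.429 to 0.480 CPM in CT and 0.166 to 0.293 in M1B26, did not pass (-0.89 ± 0.35, edgeR adjusted p = 0.0529). ADAM23, known as a surface partner of LGI proteins and integrins in the brain, was at 0.114, 0 and 0.183 CPM in CT, 0.398, 0.445 and 0.259 in MC26 and 1.24, 1.47 and 1.63 in M1B26. The lines did not overlap. M1B26 exceeded CT by 3.49 ± 0.40 on the log2 scale (edgeR adjusted p = 4.98e-05), or 4.09 without CT replicate 3. Against MC26 it was 1.98 ± 0.36 (edgeR adjusted p = 0.00161). MC26 was higher than CT by 1.52 ± 0.47 (edgeR adjusted p = 0.0246), by 2.12 without CT replicate 3, and not past the threshold without CT replicate 1 (0.0808), MC26 replicate 1 (0.0686) or MC26 replicate 2 (0.0819).

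ADAM22, a relative of ADAM23, had 2, 0 and 2 counts in CT, 0, 1 and 0 in MC26 and 13, 13 and 30 in M1B26. Over summed counts its level in M1B26 was 17.4 times that in CT (95% interval 6.43 to 66.0, exact binomial, counting error only). The single MC26 count gives a ratio of 48.1 with an interval of 8.29 to 1934. Both differences passed the edgeR test (adjusted p = 0.00026 and 0.000439). ADAM11, which lies on chromosome 17, was at 0.262 to 0.427 CPM in CT, 0.0995 to 0.188 in MC26 and 0.554 to 0.721 in M1B26. It was lower in MC26 than in CT by -1.33 ± 0.34 (edgeR adjusted p = 0.0095), and M1B26 exceeded MC26 by 2.04 ± 0.32 (0.000682). ADAM11 was not tested for its part of the chromosome 17 shift in M1B26. Its call in M1B26 against CT (0.71 ± 0.27, edgeR adjusted p = 0.0451) was lost in DESeq2 (0.161), without the expression minimum (0.112), with total counts in place of TMM factors (0.0709) and without any 1 of the CT or M1B26 libraries or MC26 replicate 2 (0.0592 to 0.147). ADAM32 passed no comparison with all libraries in the fit, but did without MC26 replicate 3, at an edgeR adjusted p of 0.0298 in MC26 against CT and 0.0275 in M1B26 against CT. The latter also passed with total counts in place of TMM factors (0.0372) and in a fit of the 6 compared libraries (0.0289).

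**Figure D5:**
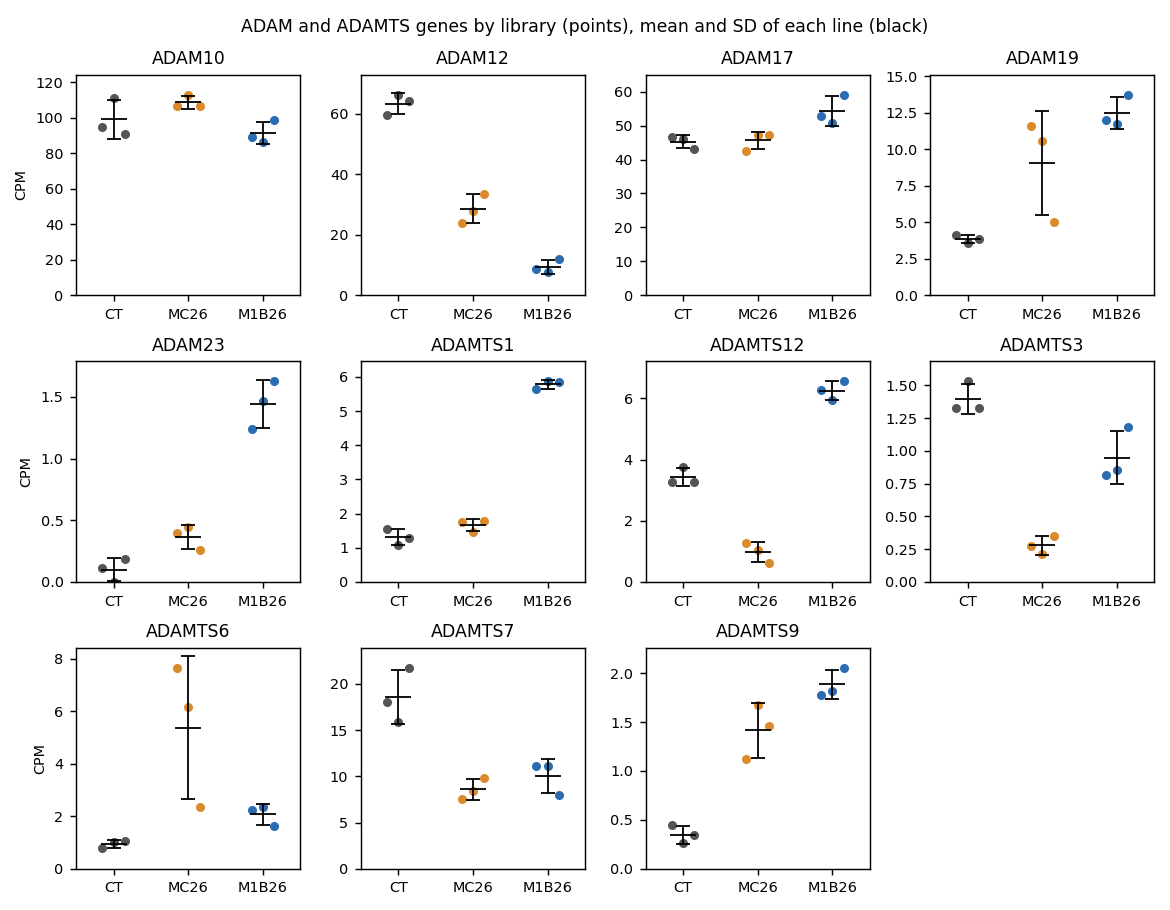
CPM (y axis from 0) of the ADAM and ADAMTS genes described library by library, with the mean and SD of the 3 libraries of each line in black. ADAM12 falls from 63.2 to 9.32 CPM between CT and M1B26, ADAMTS3 and ADAMTS12 are lowest in MC26, and ADAMTS1 and ADAM23 are highest in M1B26.

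Of the ADAMTS genes that cut proteoglycans such as versican and aggrecan, ADAMTS1 and ADAMTS9 rose. ADAMTS1 was at 1.56, 1.09 and 1.29 CPM in CT, 1.77, 1.46 and 1.79 in MC26 and 5.64, 5.87 and 5.85 in M1B26. CT and MC26 overlap, and M1B26 stands above both. Its log2 level in M1B26 exceeded that of CT by 2.10 ± 0.15 (edgeR adjusted p = 2.17e-06) and 1.79 ± 0.15 against MC26 (1.37e-05), and 0.32 ± 0.16 in MC26 against CT (0.148). ADAMTS9 was at 0.443, 0.262 and 0.342 CPM in CT, 1.12, 1.67 and 1.46 in MC26 and 1.78, 1.82 and 2.05 in M1B26. It rose by 1.95 ± 0.24 in MC26 (edgeR adjusted p = 0.000112) and 2.36 ± 0.23 in M1B26 (1.65e-05), and the lines differed by 0.41 ± 0.21 (0.132).

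ADAMTS15 was at 1.40 to 1.88 CPM in CT, 2.52 to 3.21 in MC26 and 1.74 to 2.37 in M1B26. It was higher in MC26 than in CT by 0.86 ± 0.19 (edgeR adjusted p = 0.00415). M1B26 differed from MC26 by -0.49 ± 0.18 (edgeR adjusted p = 0.0531), and passed without CT replicate 2 or 3, MC26 replicate 3 or M1B26 replicate 2 (0.0386 to 0.0495), with a minimum mean of 50 counts (0.0492) and with total counts (0.0435). ADAMTS4 passed no test, and ADAMTS5, ADAMTS8 and ADAMTS20 were too low or at 0.

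ADAMTS3, which removes the N-propeptide of procollagens and also processes VEGF-C, was lowest in MC26. It was at 1.33, 1.53 and 1.33 CPM in CT, 0.274, 0.209 and 0.353 in MC26 and 0.812, 0.852 and 1.18 in M1B26. The lines did not overlap. MC26 was below CT by -2.29 ± 0.26 on the log2 scale (edgeR adjusted p = 6.25e-05), and M1B26 was above MC26 by 1.76 ± 0.26 (0.000524). M1B26 differed from CT by -0.53 ± 0.22 (edgeR adjusted p = 0.0627), and by -0.73 (0.0289) without M1B26 replicate 3, and passed with total counts (0.0371). ADAMTS2 had no count and ADAMTS14 was too low to test.

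ADAMTS12 showed opposite signs in the transformed lines. It was at 3.26, 3.76 and 3.28 CPM in CT, 1.27, 1.05 and 0.612 in MC26 and 6.27, 5.94 and 6.56 in M1B26. All MC26 libraries were below CT and all M1B26 libraries above it. The log2 fold change was -1.81 ± 0.21 in MC26 against CT (edgeR adjusted p = 8.06e-05), 0.88 ± 0.18 in M1B26 against CT (0.00238) and 2.68 ± 0.21 in M1B26 against MC26 (7.49e-06). ADAMTS7, like ADAMTS12 an enzyme that cuts cartilage oligomeric matrix protein, fell in both lines. It was at 18.1, 15.9 and 21.7 CPM in CT, 7.58, 8.42 and 9.81 in MC26 and 11.1, 11.2 and 7.96 in M1B26. Its log2 fold change was -1.12 ± 0.16 in MC26 (edgeR adjusted p = 0.000311) and -0.89 ± 0.16 in M1B26 (0.000779), and the lines differed by 0.22 ± 0.16 (0.293).

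ADAMTS6, a relative of ADAMTS10 known for acting on fibrillin-rich matrix, was highest in MC26. It was at 0.786, 1.005 and 1.07 CPM in CT, 7.63, 6.15 and 2.35 in MC26 and 2.25, 2.34 and 1.63 in M1B26. MC26 replicate 3 was close to the M1B26 libraries, and the other MC26 libraries were well above them. The log2 fold change was 2.50 ± 0.38 in MC26 against CT (edgeR adjusted p = 0.000454) and -1.38 ± 0.35 in M1B26 against MC26 (0.00973). The rise in M1B26 against CT (1.12 ± 0.38, edgeR adjusted p = 0.0313) was lost without any 1 CT library, M1B26 replicate 1 or M1B26 replicate 2 (0.0525 to 0.108). ADAMTS13 and ADAMTS17 passed no test.

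Genes that act around these proteases were counted by list, to be read beside the shares of all tested genes: 18.8% higher and 19.9% lower in MC26 against CT, 25.2% and 23.7% in M1B26 against CT, and 21.2% and 18.4% in M1B26 against MC26. Of 8 tested genes of the plasminogen system, whose product plasmin activates several proMMPs, 4 were higher and none lower in MC26 against CT, 5 higher and 2 lower in M1B26 against CT, and 1 higher and 4 lower in M1B26 against MC26. PLAUR, the urokinase receptor, rose from 9.09 to 12.7 CPM in CT to 25.8 to 41.4 in MC26 (1.61 ± 0.17, edgeR adjusted p = 3.48e-05) and 18.3 to 21.3 in M1B26 (0.88 ± 0.17, 0.00131).

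SERPINB2, an inhibitor of plasminogen activators, rose from 0.1 to 0.342 CPM in CT to 1.01 to 3.95 in MC26 and 4.52 to 8.88 in M1B26. Its log2 fold change was 3.52 ± 0.57 in MC26 and 5.04 ± 0.55 in M1B26 (edgeR adjusted p = 0.000757 and 3.45e-05), or 4.37 and 5.88 without CT replicate 3. M1B26 was above MC26 by 1.52 ± 0.42 (edgeR adjusted p = 0.0147), a call lost without M1B26 replicate 1 (0.0543). SERPINE2, a serpin that inhibits thrombin and urokinase, fell in M1B26, by -0.86 ± 0.15 against CT and -1.03 ± 0.15 against MC26 (edgeR adjusted p = 0.000718 and 0.000419).

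Among 11 tested activators and further inhibitors of MMPs, 4 were higher and 5 lower in MC26 against CT, 1 higher and 4 lower in M1B26 against CT, and 5 higher and 3 lower in M1B26 against MC26. The 5 calls in M1B26 against CT came to 3 without CT replicate 3, MC26 replicate 2 or any 1 M1B26 library. PCSK5, a furin-like convertase, rose from 0.0874 to 0.1 CPM in CT to 0.721 to 1.26 in MC26 and 2.39 to 3.34 in M1B26. Its log2 fold changes were 3.30 ± 0.32 and 4.91 ± 0.30 (edgeR adjusted p = 2.11e-05 and 6.35e-07). In CT replicate 2 its level was under that of 3 counts (0.131 CPM), so the size of these changes rests on few CT counts. TFPI2, a matrix inhibitor of plasmin, was high in MC26 alone, at 5.12, 1.96 and 1.62 CPM beside 0.146 to 0.175 in CT and 0.240 to 0.402 in M1B26. Its log2 fold change was 4.20 ± 0.49 in MC26 against CT (edgeR adjusted p = 7.66e-05), or 3.51 without MC26 replicate 1. M1B26 was below MC26 by -3.22 ± 0.44 (edgeR adjusted p = 0.00031), or -2.53 without MC26 replicate 1. Against CT, M1B26 differed by 0.98 ± 0.58 (edgeR adjusted p = 0.188). It passed without MC26 replicate 1 (0.0269) and in a fit of the 6 compared libraries (0.0368). RECK, a membrane inhibitor of MMP2 and MMP14 named here for its role and not for its size of change, was at 3.89 to 4.71 CPM in CT, 2.33 to 2.77 in MC26 and 4.01 to 4.58 in M1B26. It was lower in MC26 than in CT by -0.77 (edgeR adjusted p = 0.00111) and differed by -0.01 in M1B26 against CT (0.971).

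The 9 partners of ADAM10 and ADAM17 were all tested. They are FRMD8 and the tetraspanins and iRhoms that carry these sheddases to the surface. In MC26 against CT 3 were higher and 2 lower, in M1B26 against CT 6 higher and 1 lower, and in M1B26 against MC26 5 higher and none lower, beside 18.8% and 19.9%, 25.2% and 23.7%, and 21.2% and 18.4% of all genes. RHBDF2, the iRhom that escorts ADAM17, was at 22.8 to 29.2 CPM in CT, 25.7 to 31.2 in MC26 and 46.4 to 64.7 in M1B26 (1.01 ± 0.13 in M1B26 against CT, edgeR adjusted p = 0.000125). TSPAN15, a tetraspanin that directs ADAM10 towards N-cadherin, was at 2.61 to 2.75 CPM in CT, 0.941 to 1.44 in MC26 and 4.36 to 5.00 in M1B26. Its log2 fold change was -1.22 ± 0.17 in MC26 against CT (edgeR adjusted p = 0.000297), 0.83 ± 0.15 in M1B26 against CT (0.00116) and 2.05 ± 0.17 in M1B26 against MC26 (1.12e-05). TSPAN10 and TSPAN33, from the same tetraspanin subfamily, rose in M1B26 against CT by 2.13 ± 0.27 and 1.01 ± 0.17 (edgeR adjusted p = 0.000103 and 0.00064). RHBDF2 and TSPAN10 are chromosome 17 genes, like TIMP2. How far the upward shift of that chromosome in M1B26 enters their rises, or the count of 6 higher partners, was not tested.

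Of 6 tested ADAMTS-like proteins and ADAMTS-modifying enzymes, 1 was higher and 1 lower in each comparison. The 2 calls came to 1 in MC26 against CT without CT replicate 1 or 2, MC26 replicate 2 or M1B26 replicate 1, and in M1B26 against MC26 without CT replicate 1, MC26 replicate 1 or 2 or M1B26 replicate 2 or 3. PAPLN, or papilin, a matrix protein with ADAMTS-like domains, was at 7.43, 7.60 and 6.95 CPM in CT, 0.298, 0.340 and 1.76 in MC26 and 0.631, 0.615 and 0.720 in M1B26. Its log2 fold change was -3.16 ± 0.46 in MC26 and -3.47 ± 0.46 in M1B26 (edgeR adjusted p = 0.000354 and 0.000134). MC26 replicate 3 stood above the other MC26 libraries. Without it the change in MC26 was -4.51, and M1B26 was above MC26 by 1.04 (edgeR adjusted p = 0.00477), where with all libraries the difference was -0.31 ± 0.53 (0.673). ADAMTSL4, a fibrillin-binding protein, rose in M1B26 from 18.6 to 22.9 CPM in CT to 53.2 to 62.9 (1.45 ± 0.23, edgeR adjusted p = 0.000413). In MC26 it was at 19.4, 27.2 and 44.3 CPM (0.50 ± 0.23, edgeR adjusted p = 0.108), and passed without MC26 replicate 1 (0.74, 0.00941).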

How the data were processed

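Poly-A RNA of 9 libraries, 3 per line, was sequenced in pairs. The authors aligned reads with STAR (version 2.7.3a) to GRCh38 and deposited raw counts per gene symbol. Salmon (version 1.1.0) is also named, but the deposited counts are whole numbers and include non-coding genes, so the counting program and its strand setting are not given in the sources used here.

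The counts were fitted with edgeR (version 4.0.16, R 4.3.3): TMM scaling, filterByExpr with a minimum count of 10, and the quasi-likelihood test over all 9 libraries (6 residual degrees of freedom), 2-sided, Benjamini-Hochberg adjusted over 15717 genes. The common biological variation was 10.4%. SE is the log2 fold change divided by the root of F. RPKM used GENCODE 44 exon lengths, which matched 68 of the 69 genes. The script was tested on simulated data. Library totals of 21425118 to 80076597 set the precision, and 3 counts were the detection floor. DESeq2 (1.42.0), other scalings, filters and omission of each library were alternatives.

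The gene set and the lists were chosen with earlier results of these data known. Values per library are given for TIMP1, TIMP2, TIMP3, MMP14, ADAM10 and ADAM17, and for genes with at least 1 CPM in a line that, in a comparison, had an adjusted p under 0.05, a log2 change of 1 or more either way and no overlap. MMP3, ADAM22 and RECK were added after their values were seen. Pathway genes were named by the same size and p. Same-numbered libraries did not deviate together across all lines, so replicate numbers were not used as a block in the main fit. Results with the block are given as an alternative. Some genes of the lists are not reported here by name.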

Additional observations from a re-analysis of the deposited data

Results flagged for a closer look

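The transformed lines share a parent and the same factors, so genes whose levels differ between them were singled out. Of the genes given library by library, 14 differed between M1B26 and MC26 in edgeR's quasi-likelihood test with Benjamini-Hochberg adjustment. Most were picked for description partly because of a change of this size, so their number is not a measure of how often the lines differ.

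TIMP2 was higher in M1B26 than in MC26 by 1.03 on the log2 scale (adjusted p = 4.5e-05), ADAMTS12 by 2.68 (7.49e-06), ADAMTS1 by 1.79 (1.37e-05), ADAMTS3 by 1.76 (0.000524), ADAM23 by 1.98 (0.00161), MMP11 by 1.99 (0.00626) and ADAM17 by 0.25 (0.0234). MMP14 was lower by -0.80 (0.000137), TIMP1 by -1.05 (3.08e-05), TIMP3 by -1.49 (1.78e-06), ADAM12 by -1.60 (4.09e-05), ADAMTS6 by -1.38 (0.00973), MMP2 by -0.84 (0.0111) and ADAM10 by -0.25 (0.0352). The ADAM10 and ADAM17 calls were each lost on leaving out 1 library, at adjusted p up to 0.121 and 0.0948, and the MMP11 difference was 2.93 without MC26 replicate 3. TIMP2 and ADAMTS12 lay below CT in every MC26 library and above CT in every M1B26 library. The part of the chromosome 17 shift in the TIMP2 difference was not tested.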

How the results depend on the processing

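The number of family genes called stayed within 1.5 times its value under every alternative run. Leaving out each library in turn gave 18 to 25 in MC26 against CT, 17 to 25 in M1B26 against CT and 18 to 23 in M1B26 against MC26. Other scalings, filters, DESeq2 and fits of the 6 compared libraries gave 17 to 22, 18 to 25 and 17 to 23, the lowest each time with a minimum mean of 50 counts, where fewer genes were tested. Over the 4 pathway lists, 20, 21 and 20 genes were called, and 17 to 21, 16 to 22 and 18 to 25 under the alternatives. Among 807 values of the genes given library by library, 776 kept their direction and side of the threshold, 26 lost the call, 5 gained it and none reversed. With the replicate number as a block, 21, 22 and 21 family genes were called. In M1B26 against MC26 the edgeR adjusted p under the block was 0.0302 for MMP28 and 0.0528 for ADAM21, and for ADAM11 in M1B26 against CT it was 0.0657. Same-numbered libraries correlated in their deviations at -0.137 to 0.21, over 0.1 in 3 of 9 pairs, and 8 of 18 best matches had the same number. Between MC26 and M1B26 the same-numbered pairs were at 0.148, 0.0701 and 0.157. Pairs with different numbers between these lines were at -0.173 to 0.0478. The labels do not say whether the numbers pair libraries, and a pairing of MC26 with M1B26 is not excluded. Depth limits the genes under 1 CPM, where 1 count is 0.0122 to 0.0437 CPM.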

Other observations

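Within MC26, the replicates differed more for some genes than in the other lines. MC26 replicate 3 had 5.01 CPM of ADAM19 and 2.35 of ADAMTS6, beside 10.6 to 11.6 and 6.15 to 7.63 in the other MC26 libraries. For PAPLN and ADAMTSL4 the same library was highest of the 3, at 1.76 and 44.3 CPM. MC26 replicate 3 held 42869494 counts, above the other MC26 libraries (38585395 and 41267886) and within the range of all 9. For MMP3 it was MC26 replicate 1 that stood apart, with 15 counts beside 3 and 4. MMP14 stepped down over MC26 replicates 1, 2 and 3, at 322, 273 and 243 CPM. Replicate 3 is thus not the only MC26 library that differs, and the source of this spread was not tested.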
